A study of Mus musculus with 55 samples.

Results

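ATP-binding cassette (ABC) transporters use ATP to move drugs, conjugates, bile constituents and sterols out of cells. The expression of 10 ABC transporter genes of the liver (Abcc2, Abcc3, Abcc6, Abcb1a, Abcb1b, Abcb4, Abcg2, Abcg5, Abcg8 and Abca1) was examined among 37620 genes of the series. The genes were taken by symbol. Livers came from 55 mice, all labelled male, of 29 Collaborative Cross (CC) lines, recombinant inbred lines bred from 8 founder strains (C57BL/6J, A/J, WSB/EiJ, PWK/PhJ, CAST/EiJ, NZO/HlLtJ, NOD/ShiLtJ and 129S1/SvImJ). None of the mice received a drug, all had chow and water without restriction, and the line was therefore the only grouping. A line was represented by 1 mouse (8 lines), 2 mice (16 lines) or 3 mice (5 lines), aged between 8 and 11.9 weeks and weighing between 12.8 and 38 g. The spread between line mates was the error of the tests for a difference among lines, and a line with 1 mouse has no such spread. The correlation of Abcg5 with Abcg8 and the slopes on body weight used the means of all 29 lines, with the line as the unit.

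The transporters sit in different membranes of the hepatocyte. On the canalicular membrane, which faces the bile, Abcc2 (also called Mrp2) exports conjugated organic anions such as bilirubin glucuronides, Abcg2 (breast cancer resistance protein) exports sulphate conjugates and many drugs, and Abcb1a and Abcb1b encode the P-glycoproteins, broad exporters of hydrophobic drugs. Abcb4 flips phosphatidylcholine into bile, and Abcg5 and Abcg8 encode the subunits of a heterodimer that secretes cholesterol and plant sterols. On the basolateral membrane, which faces the blood, Abcc3 (Mrp3) returns glucuronides to the circulation, Abcc6 is the gene mutated in pseudoxanthoma elasticum, and Abca1 loads cholesterol and phospholipid onto apolipoprotein A-I. Pregnane X receptor, CAR and Nrf2 are known inducers of several of the drug transporters, and the liver X receptors (LXR) induce Abca1, Abcg5 and Abcg8.

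Abcg5 and Abcg8 lie head to head on chromosome 17 and are transcribed in opposite directions. On the mouse genome build NCBIM37, which the files use, Abcg5 spans 85057574 to 85082351 on the minus strand and the main Abcg8 isoform starts at 85082461 on the plus strand. The 109 bases between the annotated starts are shown because they lie upstream of both. They have a GC content of 45.9% and are given on the plus strand, in the direction of Abcg8, from chr17:85082352-85082460. Capitals mark the matches found for the motifs searched.
Abcg5-Abcg8 interval: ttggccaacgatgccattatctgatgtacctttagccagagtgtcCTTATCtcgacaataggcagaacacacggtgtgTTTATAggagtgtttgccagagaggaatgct
Among 7 motifs searched on both strands, 2 matched, and both lie on the minus strand, in the direction of Abcg5. The first is the GATA motif GATAAG, which 2.54% of 32544 mouse promoter windows of the same length hold (RefSeq sequences on GRCm38, the 109 bases before the start). The second is the TATA box motif TATAAA, which 5.88% of these windows hold. This TATAAA match lies from base 79 counted from the Abcg5 end, nearer to the Abcg8 start. The letters CAAGGTCA (a site of the nuclear receptor Nr5a2), TGACNNNGC (an antioxidant response core), CACGTG (an E-box) and CAAAGTCCA (an Hnf4a-type site), held by 0.492%, 5.25%, 3.38% and 0.184% of the windows, and the DR4 repeat bound by LXR, held by 0.0123%, had no match in this interval. The matched letters are a description of the sequence and are not shown to be bound.

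Abcb1a and Abcb1b lie side by side on chromosome 5, followed by Abcb4, and their sequences limit how well their fragments can be told apart. The coding sequences of Abcb1a and Abcb1b are 88.2% identical over 3816 aligned bases, against 76.3% for Abcb1a with Abcb4 and 74.7% for Abcb1b with Abcb4. The longest stretch identical between the Abcb1a and Abcb1b transcripts has 338 bases and lies in exons 13 and 14 of Abcb1a, all of it coding. Its exon 13 part, shown because a read of 50 bases inside it fits both genes, is at chr5:8702387-8702572 on the plus strand.
Abcb1a-Abcb1b identical run: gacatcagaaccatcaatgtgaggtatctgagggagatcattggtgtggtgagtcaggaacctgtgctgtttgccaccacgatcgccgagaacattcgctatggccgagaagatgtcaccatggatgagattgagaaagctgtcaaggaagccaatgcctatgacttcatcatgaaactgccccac
Of the windows of 50 bases in the transcript of each gene, 840 of 4948 in Abcb1a, 779 of 4295 in Abcb1b and 138 of 4029 in Abcb4 also occur in a coding transcript of another gene. No window of the other 7 transporters does so. The fragments of shared windows were divided between the genes by the quantification software RSEM, so the levels of Abcb1a and Abcb1b are less certain than the others.

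Each liver gave between 20.5 and 34.0 M fragments estimated for genes, with a median of 27.7 M. Over all genes with a highest FPKM (fragments per kilobase of transcript, scaled to the size of the library) of at least 2, the most similar mouse was a line mate for 41 of the 47 mice that have one. Of the 6 others, 5 were the mice labelled IL-1052 and IL-2750, each of which was most similar to a mouse of the other of these lines, so results that rest on these lines are given with and without them. The mouse labelled IL-785 replicate 3 had Xist at 39.5 FPKM, against at most 0.12 FPKM in the other 54 mice, which goes against its label as male, while Ddx3y of the Y chromosome was at 12.6 FPKM in it. As a measure of coverage towards the 5′ end, the share taken by isoforms that lack the 5′ exons was averaged over 64 genes that are not among the transporters. This truncated share ranged from 22.4% to 44.4% per mouse (median 29.3%), was highest in IL-2126 (1 mouse) and had an intraclass correlation by line of 0.560, and it is given below wherever it moved with a result.

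Of the 10 genes, 8 were well expressed in every liver and the pair of P-glycoprotein genes was low, with at most 166 fragments estimated for Abcb1a and between 1.13 and 517 for Abcb1b in a mouse. In means of the 29 lines the order was Abcb4 at 50.3 ± 11.1 FPKM (SD, n = 29 lines), Abcc2 at 45.7 ± 12.0, Abcg2 at 40.7 ± 10.2, Abcc3 at 31.6 ± 11.4, Abcg5 at 29.1 ± 7.35, Abcg8 at 28.0 ± 6.72, Abcc6 at 23.5 ± 5.5 and Abca1 at 15.4 ± 2.65 FPKM. Abcb1b followed at 1.03 ± 1.05 FPKM and Abcb1a at 0.563 ± 0.335 FPKM. Only some neighbours in this order were separated. Abca1 was above Abcb1b in all 29 lines and Abcc6 above Abca1 in 26 of 29, whereas Abcb4 exceeded Abcc2 in 19, Abcc2 exceeded Abcg2 in 18, Abcc3 exceeded Abcg5 in 18, Abcg5 exceeded Abcg8 in 19 and Abcb1b exceeded Abcb1a in 16 of the 29 lines. FPKM is corrected for transcript length and can be compared between genes.

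**Figure D1:**
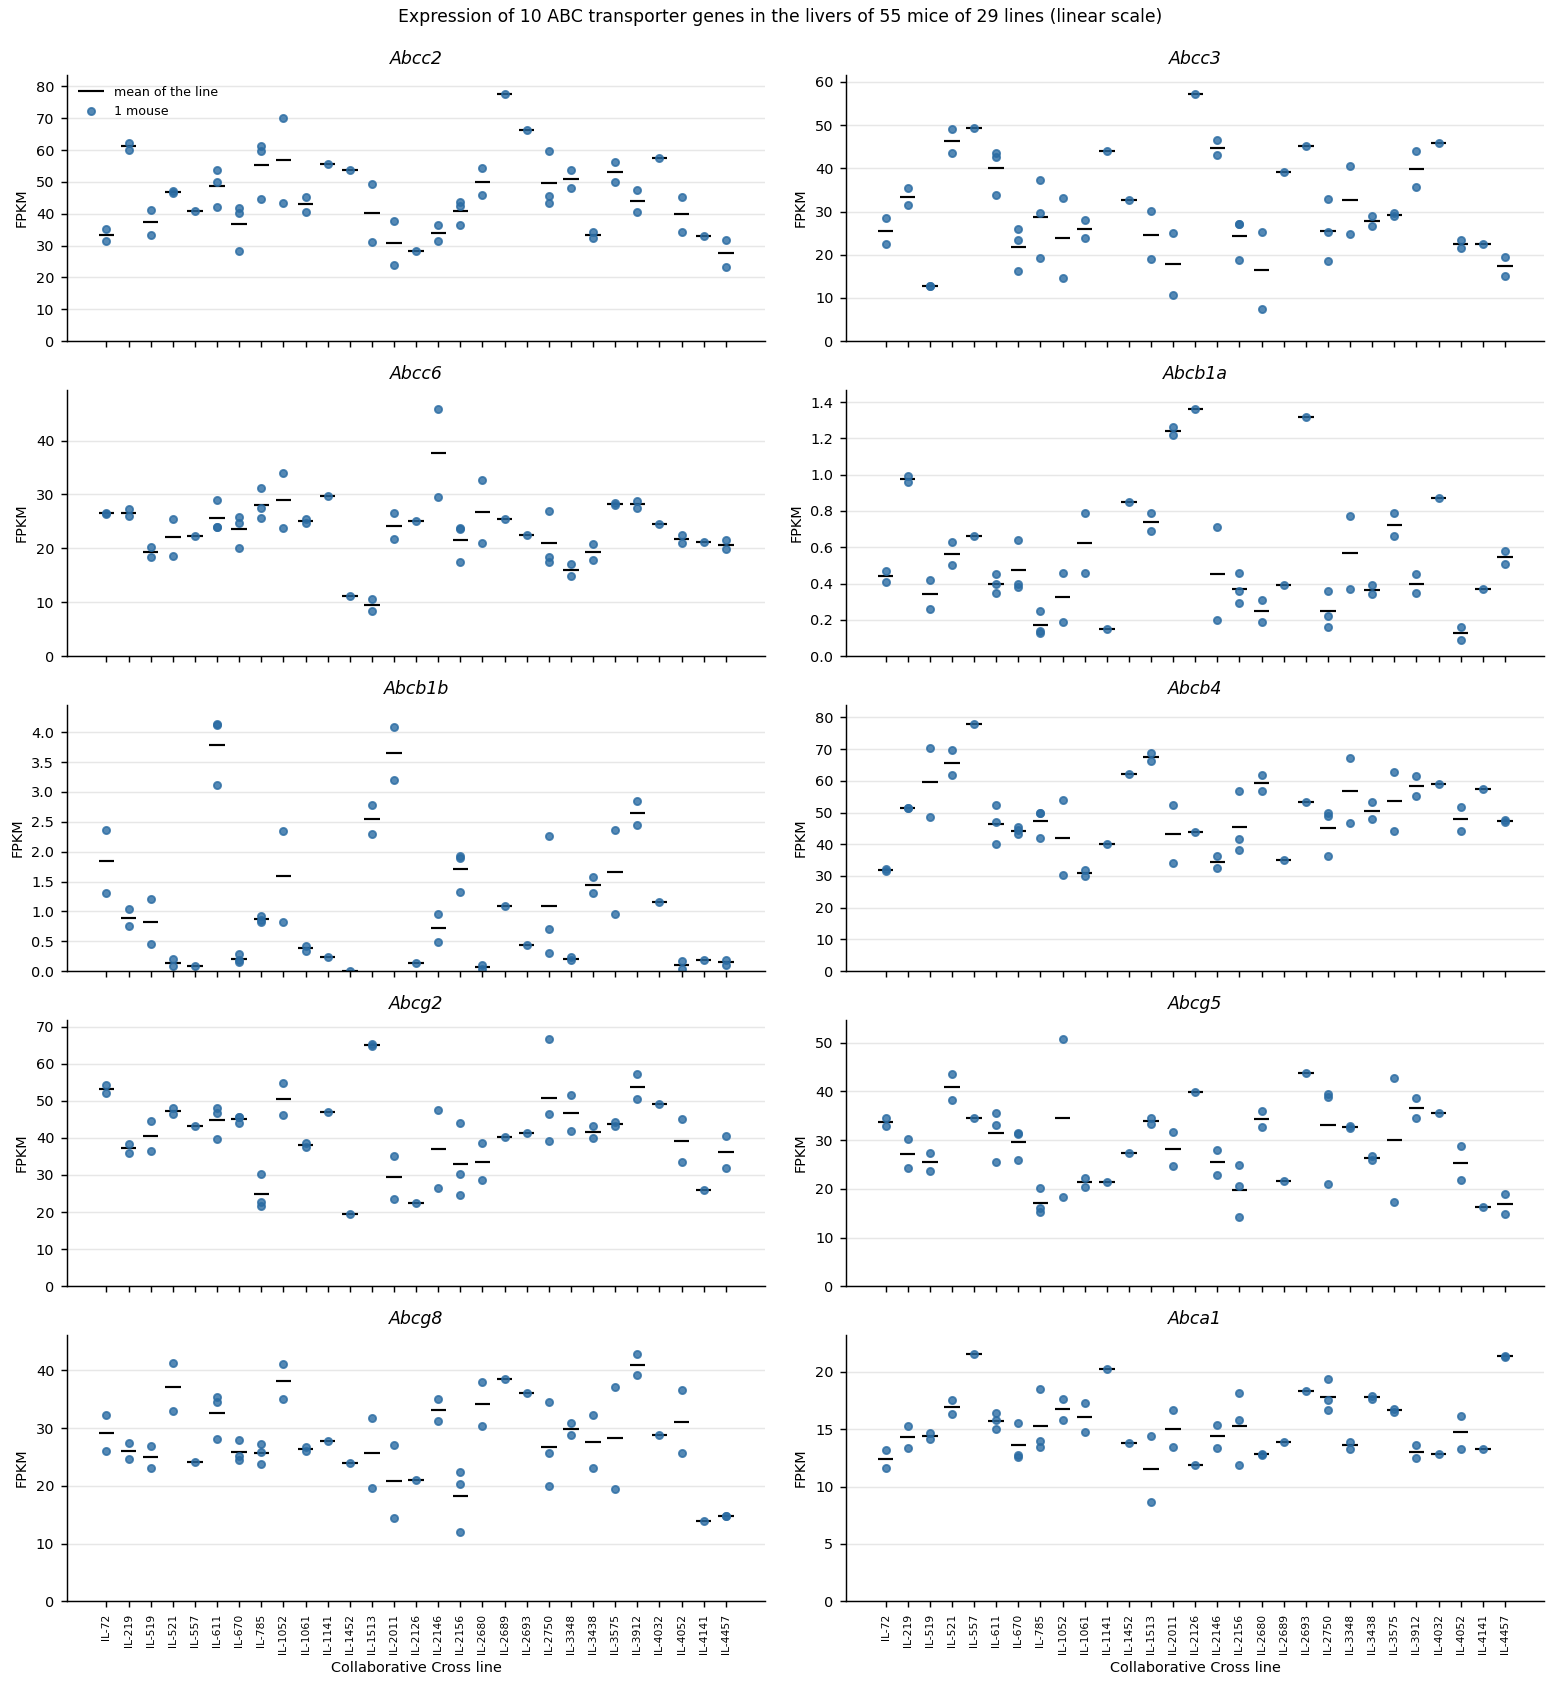
FPKM of each of the 10 genes (1 panel a gene, linear axis from 0) in the 29 lines on the horizontal axis, with 1 point for each of the 55 mice and a bar at the mean of the line. Abcb1b runs from 0.01 to 4.13 FPKM, with all mice of IL-611 and IL-2011 above 3 FPKM and wide spread in other lines such as IL-2750, while the IL-1052 mice stand apart for Abcg5, at 18.4 and 50.7 FPKM.

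All 10 transporters differed among lines in total expression by edgeR's quasi-likelihood F test over 47 mice (the 21 lines that have line mates), with Benjamini-Hochberg adjusted p-values between 7.92e-09 (Abcb1b) and 0.0331 (Abcg5). This test called 88.5% of the 15285 genes tested, so a call for every transporter is close to what most liver genes gave. The intraclass correlation, which is 0 when line mates are no more alike than other mice and 1 when they are identical, separated the genes further. It was 0.863 for Abcb1b, above 99.1% of the genes tested, and 0.736 for Abcb1a, above 89.3%. Abcc2 (0.595), Abcg2 (0.592), Abcc3 (0.580), Abcc6 (0.523), Abca1 (0.489), Abcb4 (0.488) and Abcg8 (0.455) were near the median of all genes, 0.533. Abcg5 was lowest at 0.324, above only 16.9% of the genes. Without the intermixed lines IL-1052 and IL-2750, the value of Abcg5 was 0.596, that of Abcg8 0.477 and that of Abcb1b 0.901. It was 0.656 for Abcc2, 0.6497 for Abcc3, 0.612 for Abcc6, 0.756 for Abcb1a, 0.6001 for Abcb4 and 0.686 for Abcg2. Only that of Abca1 fell, to 0.423, which was then the lowest of the 10. The median of all genes was not computed without these lines, so these values have no matching background. In whole liver, fewer cells of a type and less RNA per cell cannot be told apart.

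Abcc2 (ENSMUSG00000025194, chromosome 19, 43856682 to 43912441) ranged from 23.4 to 77.5 FPKM over mice, with a median of 43.8. The lowest line was IL-4457, where the mice had 31.7 and 23.4 FPKM, and the highest was IL-2689, with 77.5 FPKM in its only mouse. Among lines with more than 1 mouse the highest was IL-219, with 62.3 and 60.0 FPKM, and both its mice lay above every mouse of IL-4457. The highest line mean was 2.82 times the lowest, or 2.22 times among lines with at least 2 mice. The line means of Abcc2 fell with the truncated share (Spearman's rho -0.58 over 29 lines), and the part of this share in the level of single lines was not tested. With the truncated share as a covariate in edgeR, an alternative chosen after seeing the data, Abcc2 and the other 9 transporters still had adjusted p-values under 0.05.

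Abcc3 (ENSMUSG00000020865, chromosome 11, 94204612 to 94254311) had a wide relative range. Its values ran from 7.47 to 57.2 FPKM over mice (median 28.4). The mice of IL-519 had 12.7 and 12.7 FPKM, the mice of IL-521 had 49.1 and 43.5 FPKM, and the only mouse of IL-2126 had 57.2 FPKM. Its highest line mean was 4.5 times its lowest, or 3.65 times among lines with at least 2 mice, where Abcc6 had the wider ratio of 3.99. Some line mates differed as much as lines did, as in IL-2680, with 25.3 and 7.47 FPKM, and in IL-2011, with 10.6 and 25.0 FPKM. Over the 28 gaps between neighbouring lines in the order of means, only the last, between IL-557 and IL-2126, exceeded the SD within lines of 6.63 FPKM.

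Abcc6 (ENSMUSG00000030834, chromosome 7, 53231750 to 53285672) was set apart by few lines. The mice of IL-1513 had 8.34 and 10.5 FPKM and the only mouse of IL-1452 had 11.1 FPKM, below every mouse of the other 27 lines, which reached from 14.8 to 45.8 FPKM. At the upper end, the mice of IL-2146 had 45.8 and 29.6 FPKM, so that the high mean of this line rests on 1 mouse. The gaps between neighbouring line means exceeded the SD within lines of 4.09 FPKM in 2 of 28 cases. The truncated share moved against Abcc6 as well, with a rho of -0.45 over 29 lines.

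The P-glycoprotein genes were low and differed most among lines. Abcb1b (ENSMUSG00000028970, chromosome 5, 8798147 to 8866314) had 4.12, 4.13 and 3.11 FPKM in the mice of IL-611 and 3.20 and 4.09 FPKM in IL-2011. It had 0.04 and 0.10 FPKM in IL-2680 and 0.01 FPKM in IL-1452 (1 mouse), where 1.13 fragments were estimated for the gene. No mouse of the high lines overlapped with any mouse of the low lines, but these lines were picked as extremes by the same values. The most fragments estimated for any mouse were 517. Among lines with at least 2 mice the highest mean, 3.79 ± 0.586 FPKM (SD, n = 3 mice) in IL-611, was 54.1 times the lowest, 0.07 ± 0.0424 FPKM (SD, n = 2 mice) in IL-2680, a ratio that rests on 4.28 and 12.0 fragments in the latter. Between these ends, 2 of the 28 gaps between neighbouring line means exceeded the SD within lines of 0.514 FPKM.

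Abcb1a (ENSMUSG00000040584, chromosome 5, 8660077 to 8748575) stayed between 0.09 and 1.36 FPKM, on 10.0 to 166 fragments. Its lowest line was IL-4052, at 0.09 and 0.16 FPKM, and its highest lines were IL-2126 and IL-2693, at 1.36 and 1.32 FPKM in 1 mouse each, followed by IL-2011 at 1.22 and 1.26 FPKM. The pair did not vary together, since the rho of Abcb1a with Abcb1b over line means was -0.0012. IL-611 combined the highest Abcb1b with an Abcb1a in the middle of the range, at 0.45, 0.35 and 0.40 FPKM (rank 12 of 29 lines from the lowest), while IL-2126 combined the highest Abcb1a with 0.13 FPKM of Abcb1b, and IL-2011 was high in both. The stretch of identical sequence given above means that part of each level was assigned by RSEM, and how much of the difference between the genes this affects was not tested.

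**Figure D2:**
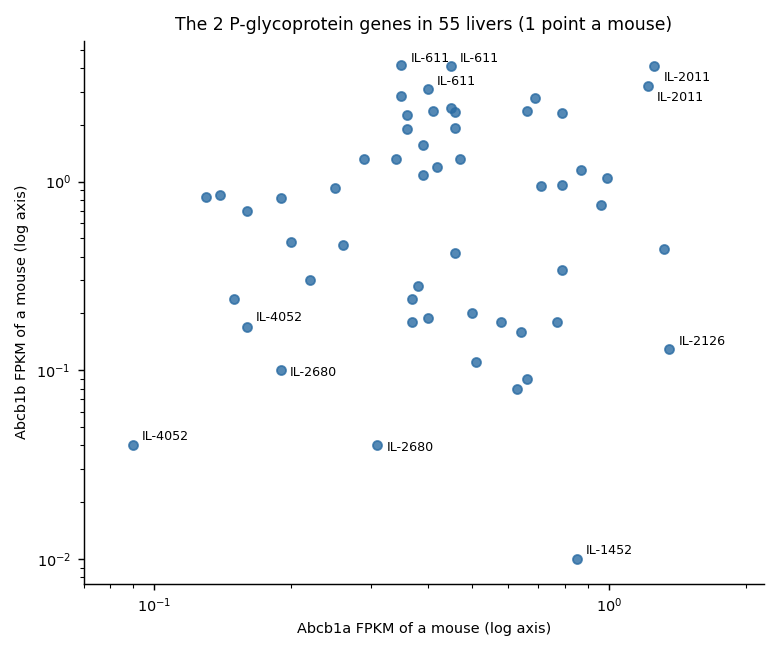
Abcb1b against Abcb1a FPKM in the 55 mice (1 point a mouse, both axes logarithmic). The 3 mice of IL-611 lie at the top near the middle of the Abcb1a axis, the 2 mice of IL-2011 at the top right, the mouse of IL-2126 at the right with little Abcb1b, and the mouse of IL-1452 at the bottom with 0.01 FPKM of Abcb1b.

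Abcb4 (ENSMUSG00000042476, chromosome 5, 8893717 to 8959225) is the last gene of this cluster and was the most expressed transporter. Its values ran from 29.9 to 77.8 FPKM over mice (median 48.9). The mice of IL-1061 had 31.9 and 29.9 FPKM and those of IL-72 had 32.2 and 31.5 FPKM, whereas those of IL-1513 had 66.4 and 68.7 FPKM and IL-557 had 77.8 FPKM in its only mouse. These low and high lines did not overlap, but they were picked as extremes by the same values. The highest mean was 2.52 times the lowest, and the line means followed neither Abcb1a (rho 0.20) nor Abcb1b (rho -0.27) closely.

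Abcg2 (ENSMUSG00000029802, chromosome 6, 58534517 to 58642863) was lowest in IL-1452, at 19.5 FPKM in 1 mouse, and highest in IL-1513, at 65.1 ± 0.502 FPKM (SD, n = 2 mice), a ratio of 3.33. Among lines with at least 2 mice the lowest was IL-785, with 22.8, 30.4 and 21.8 FPKM, all below the 65.4 and 64.7 FPKM of IL-1513, and the ratio was 2.60. The last of the IL-785 mice is the one with Xist, and it did not stand apart from its line mates for Abcg2. IL-1513, with the highest Abcg2, was also the lowest line for Abcc6, in both mice, and for Abca1, where the low mean rests on 1 mouse (8.66 against 14.4 FPKM) whose truncated share was 40.8%. The widest gap between neighbouring lines lay between IL-3912 and IL-1513, at 53.8 and 65.1 FPKM, and it exceeded the SD within lines of 7.04 FPKM.

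Abcg5 (ENSMUSG00000040505) ranged from 14.1 to 50.7 FPKM over mice (median 28.1) and Abcg8 (ENSMUSG00000024254, chromosome 17, 85075642 to 85099673) from 12.0 to 42.7 FPKM (median 27.2). The lowest mouse for both was IL-2156 replicate 3, with 14.1 FPKM of Abcg5 and 12.0 FPKM of Abcg8. The lowest line for both was IL-4141, where the only mouse had 16.3 FPKM of Abcg5 and 13.8 FPKM of Abcg8. Next were the mice of IL-4457, with 14.9 and 18.9 FPKM of Abcg5 and 14.7 and 14.7 FPKM of Abcg8. The upper end was shared less closely, with IL-2693 (43.7 FPKM, 1 mouse) highest for Abcg5 and IL-3912 (42.7 and 39.2 FPKM) highest for Abcg8. Neither gene had a gap between neighbouring line means above its SD within lines, 7.18 FPKM for Abcg5 and 5.37 FPKM for Abcg8, so that lines next to each other in the order cannot be separated. For Abcg5 much of that SD came from mice labelled IL-1052, at 18.4 and 50.7 FPKM, IL-2750, at 38.9, 39.4 and 21.1 FPKM, and IL-3575, at 17.3 and 42.8 FPKM. The edgeR call of Abcg5 was the weakest of the 10. Leaving out 1 mouse at a time, it was lost in 6 of 47 cases (IL-2156 replicate 3, IL-4457 replicates 1 and 2, IL-521 replicate 2, and IL-785 replicates 1 and 2), with adjusted p-values by edgeR's quasi-likelihood test up to 0.0737.

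Abca1 (ENSMUSG00000015243, chromosome 4, 53043659 to 53172767) varied least. Its values ran from 8.66 to 21.5 FPKM over mice (median 15.1). The mice of IL-1513 had 8.66 and 14.4 FPKM, those of IL-4457 had 21.3 and 21.4 FPKM and IL-557 had 21.5 FPKM in its only mouse. The highest line mean was 1.86 times the lowest. IL-4457 was thus among the highest lines for Abca1 and among the lowest for Abcc2, Abcc3, Abcg5 and Abcg8.

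Extreme lines were often lines with 1 mouse, for which no spread is known. The extreme lines of each gene were picked by the same values, so a lack of overlap between their mice is a description only. The lowest line had 1 mouse for 4 and the highest line had 1 mouse for 6 of the 10 genes. Among all genes tested that were listed above 0 in every line (13336 genes), the highest line mean was in the median 3.19 times the lowest, against 3.15 times over the 10 transporters. Among the 3965 of these genes with a mean of at least 10 FPKM it was 2.25 times, and 7 of the 8 well-expressed transporters exceeded this value, Abca1 being the exception. IL-2693 (1 mouse) was among the 5 highest lines for 6 of the 10 genes (Abcc2, Abcc3, Abcb1a, Abcg5, Abcg8 and Abca1) and among the 5 lowest for 0. IL-3912 was among the 5 highest for 5 genes and among the 5 lowest for 0. IL-2126 was among the 5 lowest for 5 genes and among the 5 highest for 3, and its single mouse had the highest truncated share. These lines were picked as extremes, and how often they rank so over all genes was not tested.

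Whether the subunits Abcg5 and Abcg8 vary together was asked across line means. Pearson's r was 0.52 over 29 lines (two-sided permutation test with 100000 permutations, p = 0.00398) and Spearman's rho was 0.45 (permutation p = 0.0155). This is the only pair tested, so no adjustment for several comparisons was made. Without the lines farthest from the median of Abcg5, IL-2693 and IL-4141, r was 0.40 over 27 lines (permutation p = 0.0403), so the relation held but rests in part on these lines. It was closer among lines with at least 2 mice, at 0.72 over 21 lines (permutation p = 0.00022). The relation was also present among mice of the same line, where deviations of 47 mice from the mean of their line correlated with an r of 0.58. Without the mice labelled IL-1052 and IL-2750, a run chosen after seeing the data, r was 0.76.

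The ratio of Abcg5 to Abcg8 was far from constant. It was 1.09 in the median line and ran from 0.561 in IL-2689, with 21.6 FPKM of Abcg5 and 38.4 FPKM of Abcg8, to 1.90 in IL-2126, with 39.9 and 21.0 FPKM, both single mice. Abcg5 was the higher of the pair in 19 of the 29 lines. IL-2126 had the highest truncated share, and the line means of Abcg8 fell with that share (rho -0.44) while those of Abcg5 did not (rho 0.11). Given the truncated share, a setting chosen after seeing the data, the partial correlation of Abcg5 with Abcg8 was 0.68. Of 11283 other genes, 91.8% had a lower rho with Abcg5 than Abcg8 had.

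**Figure D3:**
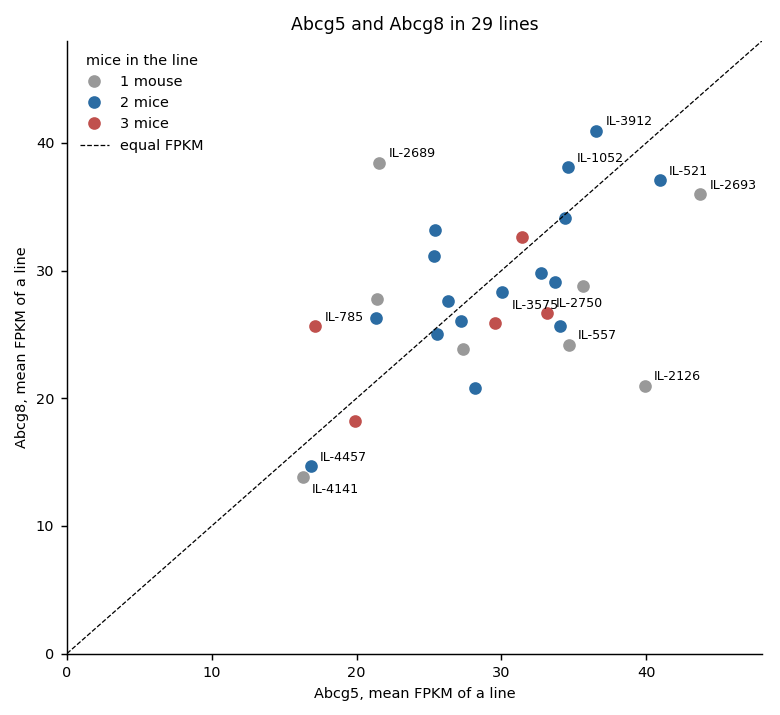
Mean FPKM of Abcg8 against that of Abcg5 in each of the 29 lines, coloured by the number of mice in the line, with a dashed line where both are equal. IL-4141 and IL-4457 lie at the lower left, IL-3912, IL-521 and IL-2693 at the upper right, and the single mice of IL-2689 and IL-2126 farthest from the dashed line on either side.

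The other 44 pairs are given as a description, over points that share libraries. Over line means, rho was positive for 31 of the 45 pairs with a median of 0.10, so the transporters did not rise and fall as a group. The highest were Abcg2 with Abcg8 (0.53), Abcg2 with Abcg5 (0.51), Abcc2 with Abcg8 (0.51) and Abcc6 with Abcg8 (0.47), all above Abcg5 with Abcg8. The lowest was Abcc6 with Abcb4 (-0.48). Line means of Abcc2, Abcc6 and Abcg8 fell with the truncated share (rho -0.58, -0.45 and -0.44). The part of this share in the pairs among these genes was not tested. Abca1 was close to none of the others, with values from -0.20 (Abcb1a) to 0.14 (Abcc2). Within lines the order differed, since Abcc3 with Abcb4 had the highest rho, 0.71, against 0.07 over line means, followed by Abcg5 with Abcg8 at 0.61. Without the mice labelled IL-1052 and IL-2750 these values were 0.67 and 0.67.

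**Figure D4:**
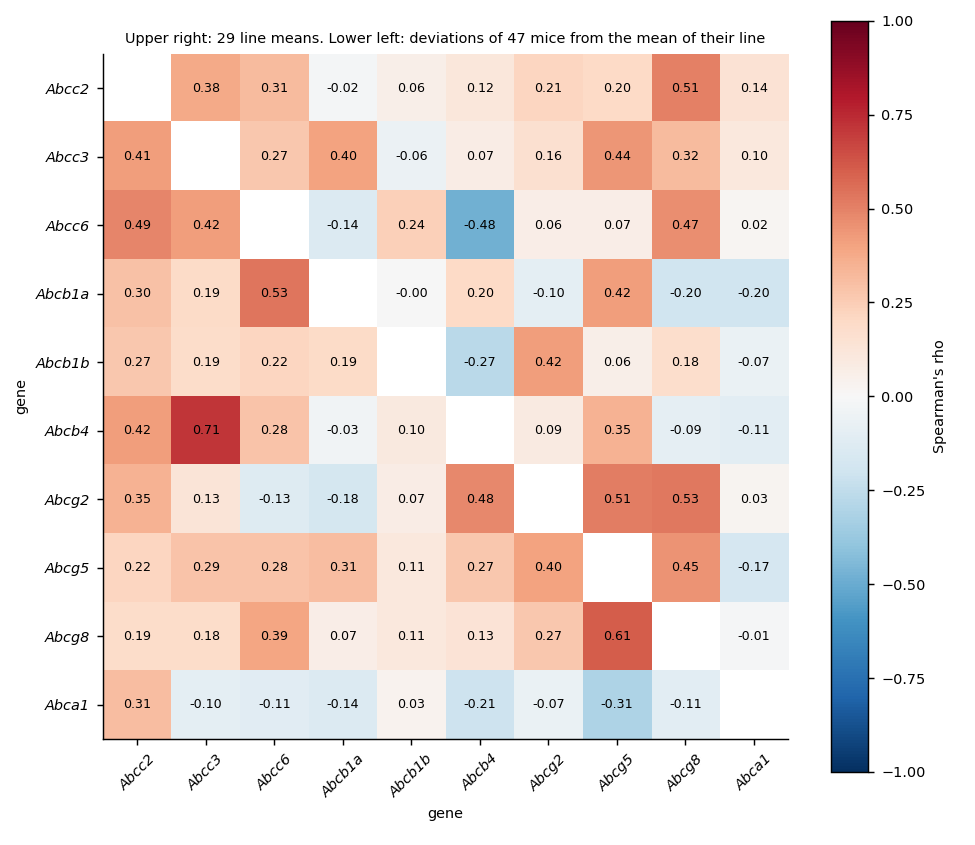
Spearman's rho for each pair of the 10 genes, with the colour scale from -1 to 1. The upper right triangle is over the means of 29 lines and the lower left triangle is over deviations of 47 mice from the mean of their line, where Abcc3 with Abcb4 (0.71) and Abcg5 with Abcg8 (0.61) stand out.

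Among the 11284 genes with a highest FPKM of at least 2, the genes most like each transporter over the 29 line means were seldom transporters. Abcc2 was followed most closely by Asxl2 (0.83), Pdpr (0.81) and Fam160b1 (0.81), and Abcc3 by Rnf19b (0.81), Cryz (0.79) and Msh3 (0.79). For Abcc6 they were Uaca (0.72), Metrn (0.71) and Tln1 (0.69), for Abcb1a they included Jag1 (0.68) and Mpp6 (0.67), and for Abcb1b they were Vps39 (0.73), Hdac5 (0.71) and Dnajc17 (0.70). Abcb4 was most like Onecut2 (0.75), Aftph (0.75) and Usp1 (0.74), and the genes most like Abcg2 included Pigy (0.73) and Sept10 (0.69). Abcg5 was most like Gm16039 (0.79), Ppp1cc (0.74) and Rpa3 (0.73), and Abcg8 most like Mgrn1 (0.76), Pla2g6 (0.76) and Tyk2 (0.74). Abca1 had the lowest best values, with Mtif2 (0.63), Rhoc (0.61) and Tmem62 (0.60). In the order of likeness to Abcg5, Abcg8 held rank 921, and in that to Abcg8, Abcg5 held rank 586. Abcg8 held rank 58 and Abcg5 rank 85 in the order of likeness to Abcg2. Line means of Abcc2, Abcc6 and Abcg8 fell with the truncated share (rho -0.58, -0.45 and -0.44), and its part in these likenesses was not tested.

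In isoforms, 8 of the 10 genes were carried by 1 annotated isoform with a mean share above 80%. Abcb1b has 1 annotated isoform. The main isoform took a mean of 99.6% in Abcb4, 99.4% in Abca1, 96.5% in Abcc3, 95.6% in Abcg2 and 94.8% in Abcc2. In Abcc6 the coding isoform ENSMUST00000002850 took 88.5% and the retained-intron isoform ENSMUST00000134200 took 8.89%, lowest in IL-2126 (1 mouse) at 2.24% and highest in IL-2011 at 17.1% and 17.2%. In Abcb1a the retained-intron isoform ENSMUST00000126846 took a mean of 17.5%, but it was listed at 0 in 27 mice and reached 71.1%, its rho with the truncated share was 0.54 over mice, and with at most 166 fragments for the gene these shares are imprecise.

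Abcg5 and Abcg8 were each split between isoforms. In Abcg5 the full coding isoform ENSMUST00000066175 (13 exons, 2351 bases) took 69.2% and the isoform ENSMUST00000112322 (11 exons, 1814 bases), which starts inside the gene at 85075462 and ends at the same base, took 28.6%. The share of the shorter isoform was 0% in IL-2689 (1 mouse), 8.04% and 13.6% in IL-1061, and 59.1% and 59.8% in IL-2126 and IL-557, which have 1 mouse each. In Abcg8 the isoform ENSMUST00000045714, with a last exon of 1672 bases, took 64.7%, and ENSMUST00000171915, with a last exon of 302 bases, took 30.2%. The former ranged from 49.1% in IL-2693 to 88.0% in IL-557, 1 mouse each. Another Abcg8 isoform, ENSMUST00000170725, took 4.90% and begins inside Abcg5, where 40 bases of its exons overlap with exons of the full Abcg5 isoform on the other strand. Since default settings were used for the quantification, fragments of these bases were not told apart by strand.

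These shares followed the truncated share of the other 64 genes. Over the 55 mice, rho with the truncated share was 0.86 for the short Abcg5 isoform and 0.82 for the Abcg8 isoform with the long last exon, and over the 29 line means it was 0.93 and 0.89. It held among line mates as well, at 0.62 and 0.66 over deviations from the mean of the line. In IL-1513, for instance, the mouse with a truncated share of 40.8% had 63.6% of the short Abcg5 isoform and the mouse with 30.4% had 34.8%. For the retained-intron isoform of Abcc6, rho with the truncated share was -0.38 over mice. The cause of the truncated share was not tested.

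**Figure D5:**
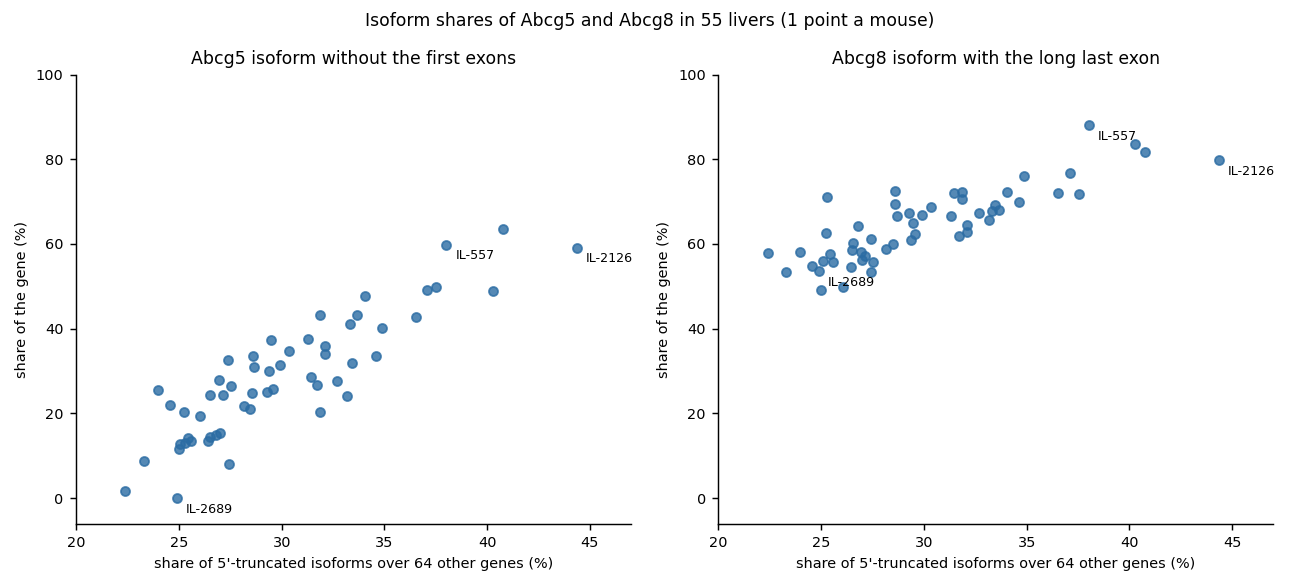
Share of the Abcg5 isoform that lacks the first exons (left) and of the Abcg8 isoform with the long last exon (right), in percent of the gene, against the mean share of isoforms lacking the 5′ exons over 64 other genes, with 1 point for each of the 55 mice. Both shares are higher where the truncated share is higher, over ranges of 0% to 63.6% for Abcg5 and 49.1% to 88.0% for Abcg8.

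By the study's rule for isoform-ratio traits, 6 of the 10 genes had a trait, and 2 of the 6 differed among lines by limma's moderated F test with Benjamini-Hochberg adjustment, against 32.8% of the 6650 isoform-ratio traits tested. These were the main isoform of Abcc2 (adjusted p = 0.00637, lowest in IL-2011 at 90.4% and highest in IL-2693 at 98.2%) and the short isoform of Abcg5 (adjusted p = 0.0296). For the isoform that the rule chose, Abcg8 lay at the threshold (adjusted p = 0.0508), and Abcc6 (0.0694), Abcc3 (0.145) and Abcg2 (0.426) did not pass. With the truncated share as a covariate, Abcc2 kept its call (limma adjusted p = 0.00877), whereas Abcg5 and Abcg8 did not pass, at 0.767 and 0.715. Without IL-1052 and IL-2750 the adjusted p-value was 0.0992 for Abcg5 and 0.0394 for Abcc6, and on untransformed percentages it was 0.0854 for Abcc2, 0.000867 for Abcc6 and 0.033 for Abcg8. Leaving out 1 mouse, the Abcg5 call was lost in 3 of 47 cases (IL-1061 replicate 1, IL-1513 replicate 1 and IL-72 replicate 1), with limma adjusted p up to 0.0591. Abcg8 came to pass in 11 and Abcc6 in 2 of 47. With every isoform kept (27.5% of 21415 passed), ENSMUST00000134200 and ENSMUST00000146866 of Abcc6 passed limma's test (adjusted p = 0.0161 and 0.018). So did ENSMUST00000171915 and ENSMUST00000170725 of Abcg8 (0.0448 and 0.0384), the full Abcg5 isoform (0.0339) and ENSMUST00000143553 of Abcc2 (0.00126). With the truncated share as a covariate too, those of Abcc6 (0.0358 and 0.0176) and Abcc2 (0.000842) passed, and those of Abcg8 (0.673 and 0.0536) and Abcg5 (0.786) did not.

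Of the nuclear receptors and other sensors that control drug and bile transporters, 12 of 12 differed among lines by the edgeR test, against 88.5% of all genes tested, and their median intraclass correlation was 0.529, against 0.533 over all genes. Nr0b2, the small heterodimer partner, ranged most, from 1.33 FPKM in IL-4457 to 43.5 FPKM in IL-2680. The median rho of the 12 sensors was 0.25 with Abcc2, against 0.04 over all genes, and 0.24 with Abcc3, against 0.12 over all genes. It was -0.07 with Abcb1b and -0.06 with Abcg2. Ppara, a receptor of fatty acids, had the highest value of the list, 0.77 with Abcc2 and 0.61 with Abcg8, and Nr1i2, the pregnane X receptor, had its highest with Abcc3, 0.47. These genes were picked as extremes of the list after their values were seen. Line means of Abcc2 and Abcg8 both fell with the truncated share, and its part in their values with Ppara was not tested.

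Of the LXR targets other than the transporters examined here, 10 of 10 differed among lines, again against 88.5% of all genes. Scd1, a fatty acid desaturase, ranged from 127 FPKM in IL-785 to 2333 FPKM in IL-3575. The LXR-induced transporters did not stand near this list, since the median rho over 9 targets was 0.04 with Abcg5 (0.16 over all genes), 0.14 with Abcg8 (0.08 over all genes) and -0.07 with Abca1 (-0.06 over all genes). Of the 9 targets, 8 had a positive rho with Abcg8, 6 with Abcg5 and 3 with Abca1. Abca1 had a rho of -0.38 with Nr1h3, which encodes LXR alpha and is also among the sensors. Nr1h3 had 0.20 with Abcg5 and 0.12 with Abcg8. Nr1h2, the gene of LXR beta, had 0.52 with Abcg8, 0.16 with Abcg5 and -0.20 with Abca1. Lpcat3, a phospholipid acyltransferase, had the highest rho with Abcg5, 0.61.

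Of 19 genes that handle bile acids and sterols, 17 passed the filter on low counts and 16 differed among lines (94.1%, against 88.5% of all genes). Cyp7a1, the rate-limiting enzyme of bile acid synthesis, ranged from 2.97 FPKM in IL-4457 to 94.1 FPKM in IL-785. The median rho of the list was 0.23 with Abcg5, against 0.16 over all genes, and between -0.07 and 0.13 with the other 9 transporters. Npc1, which moves cholesterol out of lysosomes, had the highest values of the list with Abcc3 (0.69) and Abcg5 (0.62), and Slco1b2, an uptake transporter, had the highest with Abcb4 (0.66). These too were picked as extremes after their values were seen. Of 32 other ABC genes of the liver, 31 were tested and 31 were called, against 88.5% of all genes, the widest range being that of Abcd2, a peroxisomal fatty acid transporter, from 0.12 FPKM in IL-1141 to 8.99 FPKM in IL-3438. The closest of them to a transporter was Abca6 with Abcc2, at a rho of 0.72. The part of the truncated share, which had a rho of -0.58 with Abcc2, was not tested in this value.

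The livers carried the markers of hepatocytes in every mouse, with summed levels of 7 matched marker genes between 34476 and 100121 TPM (transcripts of the gene, as RSEM scales them to a fixed total per library). Other cell types gave far lower sums, between 8.95 and 291 TPM for 8 cholangiocyte markers, among which Cftr had a median under 0.1 FPKM, and between 21.7 and 143 TPM for 8 sinusoidal endothelial markers. The sums were 18.5 to 511 TPM for 8 Kupffer cell markers, 42.0 to 261 TPM for 8 stellate cell markers, 0.96 to 23.3 TPM for 8 lymphocyte markers and 585 to 6314 TPM for 6 erythroid markers. Over line means, Abcc2 had a rho of -0.57 with the cholangiocyte sum, Abcb4 of 0.55 with the stellate sum and Abcb1b of -0.55 with the hepatocyte sum. All other values for the 10 genes and 7 lists lay between -0.40 and 0.30. By single markers, the 7 hepatocyte values for Abcb1b ran from -0.61 (Alb) to 0.22 (Fgb), with a median of -0.14. The 3 cholangiocyte markers with a highest FPKM of at least 2 gave -0.55 (Spp1) to -0.18 (Epcam) with Abcc2. The 6 such stellate markers gave 0.15 (Des) to 0.53 (Dcn) with Abcb4. The part of other cell types in the transporter levels was not tested. Nor was that of the truncated share, which had a rho of -0.58 with Abcc2, in the values with marker sums.

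Body weight is given for each mouse. In limma's test of the slope of log2(FPKM + 1) on the mean weight of a line, 0 of 11284 genes passed an adjusted p under 0.05, which is 0% of the genes, and 906 genes (8.03%) had an unadjusted p under 0.05. Of the 9 transporters tested, 0 passed either threshold. The slopes lay between -0.033 per g for Abcc3 (SE 0.022) and 0.018 per g for Abca1 (SE 0.0093). Abcb1a did not reach an FPKM of 2 and was not part of this test. In the alternative without a filter on low values, which included it, 0 genes passed an adjusted p under 0.05. Its rho with weight over line means was -0.50, given as a description.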

How the data were processed

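RNA of 55 livers was sequenced by the study as polyA-selected, paired-end libraries, with reads of 50 bases from both ends of each fragment. The authors aligned and quantified them with RSEM 1.2.18 and Bowtie 2 version 2.1.0 at default settings, on mm9 (NCBI build 37) with Ensembl 67. The deposited expected counts are the fragments RSEM estimated per gene or isoform, without normalization. The deposited FPKM and TPM are scaled by RSEM for effective length and library. The deposited isoform values are the percent of a gene's transcripts that RSEM assigned to each isoform. The reference annotation used for symbols and exons is on the same build, from Ensembl release 65. It gave a symbol to 37205 of 37620 genes.

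Depth was between 20.5 and 34.0 M estimated fragments per mouse. Lines were taken from the labels, and replicate numbers only name mice. Whether line mates shared a litter or cage is not stated, and library preparation, sequencer and run are not labelled. None of these can therefore be told apart from the line, and p-values measure the spread between these mice or these lines only. The members and gene lists were chosen with earlier results of these data known.

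Expected counts were rounded to whole numbers and tested among lines with edgeR 4.0.16 (quasi-likelihood F test, TMM scaling, filterByExpr) in 47 mice of 21 lines. Isoform ratios followed the study's rules for traits (highest FPKM of the gene at least 2, bins of the maximum over 200 with a floor of 0.5, at least 12 levels, the isoform with the most levels) and were tested with limma 3.58.1 on van der Waerden scores. Slopes on body weight used limma on line means of log2(FPKM + 1), where the pseudocount of 1 shrinks changes of low genes. The threshold was an adjusted p-value of 0.05 (Benjamini-Hochberg). Intraclass correlations used van der Waerden scores of FPKM in 55 mice. The truncated share covers 64 genes with a mean FPKM of at least 20 whose isoforms end within 50 bases of the longest isoform and lack at least 20% of its length at the 5′ end, with a mean share of 5% to 95%. All 10 members were named, with isoforms of a mean share of at least 5% and, beyond that rule, the third isoform of Abcg8, and the 3 genes most like each member, of which some are not reported here. DESeq2 1.42.0 was an alternative. The tests were checked on simulated data. R 4.3.3 and Python 3.11.15 were used. Genotypes were not used here.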

Additional observations from a re-analysis of the deposited data

How the results depend on the processing

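The number of genes that differed among lines in total expression (13523 of 15285 in edgeR) stayed within 1.5 times under every alternative run, between 10070 and 13673, and all transporters tested were called under each of them (9 of 9 when at least 10 counts were required in every mouse, which leaves out Abcb1b, and 10 of 10 otherwise). DESeq2's likelihood ratio test called 13673 genes and 10 transporters. Without 1 mouse at a time, with the dispersion trend of the full fit kept, 9 or 10 transporters were called, Abcg5 being the one lost. For isoform ratios, 5899 of 21415 were called with every isoform in place of 1 a gene, where more isoforms were tested, against 2183. The number of transporter isoform ratios called was 1 with the truncated share as a covariate, an alternative chosen after seeing the data, and between 1 and 4 without 1 mouse at a time (it moved by over 1.5 times without IL-1061 replicate 1, IL-1513 replicate 1 or IL-2750 replicate 1), against 2. The cause was not tested. The correlation of Abcg5 with Abcg8 kept its direction under the 10 alternatives run. In those over line means it also kept its side of the threshold, with r between 0.51 and 0.72. It was between 0.45 and 0.62 without 1 line at a time, and lowest, at 0.40 (permutation p = 0.0403), without both IL-2693 and IL-4141. The alternatives over mice, or over deviations of mice from the mean of their line, had r between 0.58 and 0.76. Line mates are not independent, so no conclusion on the threshold is drawn from these runs over mice. Body weight gave 0 genes under every alternative. The slope of Abcg8 on weight changed sign without IL-4457, where slopes without 1 line at a time ran from -0.018 to 0.0035. Among lines with at least 2 mice, the highest line mean was 2.22 times the lowest for Abcc2, 2.6 times for Abcg2 and 54.1 times for Abcb1b. No paired analysis was possible because replicate numbers were given in accession order and pair no mice across lines. Depth limits Abcb1a and Abcb1b, with medians of 51.6 and 96.8 fragments.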
